A study of Mus musculus with 2 samples.

Results

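The WNT ligands and their cell-surface receptors were described in RNA from mouse embryonic tongue at embryonic day 12. They were chosen by gene symbol, with earlier results of these data known: every gene named Wnt with a number, every Fzd gene, Lrp5, Lrp6, Ror1, Ror2 and Ryk. This gave 34 genes of the 22072 symbols in the deposited tables, 19 ligands and 15 receptors. The mutant library (Osr1f/-; Wnt1cre) came from tongues with a conditional allele of the zinc finger gene Osr1 over a null allele, plus Wnt1cre. The Wnt1 regulatory sequence of Wnt1cre is active in the neural crest, the source of the mesenchyme of the tongue, so Cre removes the conditional allele there, while muscle and epithelium of the mutant keep the conditional allele beside the null allele. The control library (Osr1f/+) carried the conditional allele beside a wild-type allele, and its label names neither Cre nor a null allele. Both were on a mixed background, and tongues of several embryos were pooled for each RNA. There was 1 library per genotype, so every ratio compares 2 libraries, with no replicate and no test between genotypes.

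WNT proteins are secreted, lipid-modified signals. A WNT bound to a frizzled receptor and to LRP5 or LRP6 stabilises β-catenin, which then acts in the nucleus with TCF and LEF factors. Frizzled proteins also pass on WNT signals without β-catenin, often with the coreceptors ROR1, ROR2 or RYK, and these signals steer cell polarity and movement. In the embryonic tongue, WNTs made in the epithelium take part in the formation of taste papillae, and WNT5A of the mesenchyme is needed for outgrowth of the tongue and face.

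Expression was deposited as FPKM, fragments scaled by transcript length and by the number of mapped fragments, a level that can be compared between genes. From the deposited coverage, depth was estimated at about 23100000 mapped reads in the mutant and 18900000 in the control library. Intervals below are 95% intervals of counting error made from the estimated reads, and they hold no variation between embryos. Osr1 itself had 18.4 FPKM in the mutant and 56.8 FPKM in the control library, a ratio of 0.325 (0.30 to 0.352). Its value covers the whole transcript, and the labels do not say which part the conditional allele loses. Mesenchyme, muscle and epithelium were all present: Prrx1, a mesenchyme factor, had 30.4 and 30.9 FPKM in the mutant and the control library, Myog, a muscle factor, had 84.9 and 80.8, and the keratin gene Krt5 had 23.6 and 29.7. In such bulk RNA, fewer cells of a type and less RNA per cell cannot be told apart.

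The receptors were the abundant side of the pair and were slightly higher in the mutant library, whereas the ligands were slightly lower. The 15 receptor genes summed to 333.7 FPKM in the mutant and 309.5 FPKM in the control library, a ratio of 1.08 (1.06 to 1.10). The 19 ligand genes summed to 57.1 FPKM in the mutant and 61.3 FPKM in the control library, a ratio of 0.930 (0.889 to 0.973). Receptor RNA therefore stood at 5.85 times the ligand RNA in the mutant and at 5.04 times in the control library. The size of either difference depended on 1 gene. Without Fzd1 the receptor ratio was 1.04 (1.02 to 1.06), and without Wnt6 the ligand ratio was 0.960 (0.917 to 1.01). Without Wnt5a, the most abundant ligand, the ligand ratio was 0.939 (0.868 to 1.02), so its interval included 1 as well.

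A gene was counted as measured when it reached 1 FPKM in either library and all its rows had the status OK. This held for 8 of 19 ligands and for 15 of 15 receptors. Differences were expressed on a log2 scale after 1 FPKM was added to both levels, which makes the differences of genes with low levels look smaller. Of the measured ligands, 3 were higher and 5 lower in the mutant library, with a median of −0.11. Of the receptors, 10 were higher and 5 lower, with a median of 0.07. The median over all 12383 measured genes was 0.0035, with 6336 genes higher and 6046 lower. The medians of receptors and ligands differed by 0.18. This is a description of 2 libraries, since genes are not replicates.

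A log2 ratio of 0.32 or more on that scale was found for 4 of 15 receptors in the higher direction and for 1 of 8 ligands, Wnt4. Over all measured genes the share was 3.23%. A log2 ratio of −0.32 or less was found for 0 of 15 receptors and 1 of 8 ligands, Wnt6, where the share of all measured genes was 2.2%. The counting interval of the ratio lay above 1 for 7 receptors and 1 ligand, against 10.7% of all measured genes, and below 1 for 3 receptors and 3 ligands, against 10.2%. Receptors rested on more reads than most genes, with a median of about 1952 reads in the mutant and 1628 in the control library. Ligands had medians of about 221 and 208 reads, and all measured genes of 650 and 526. More reads give narrower intervals, so counts by interval are not comparable between the sides.

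**Figure D1:**
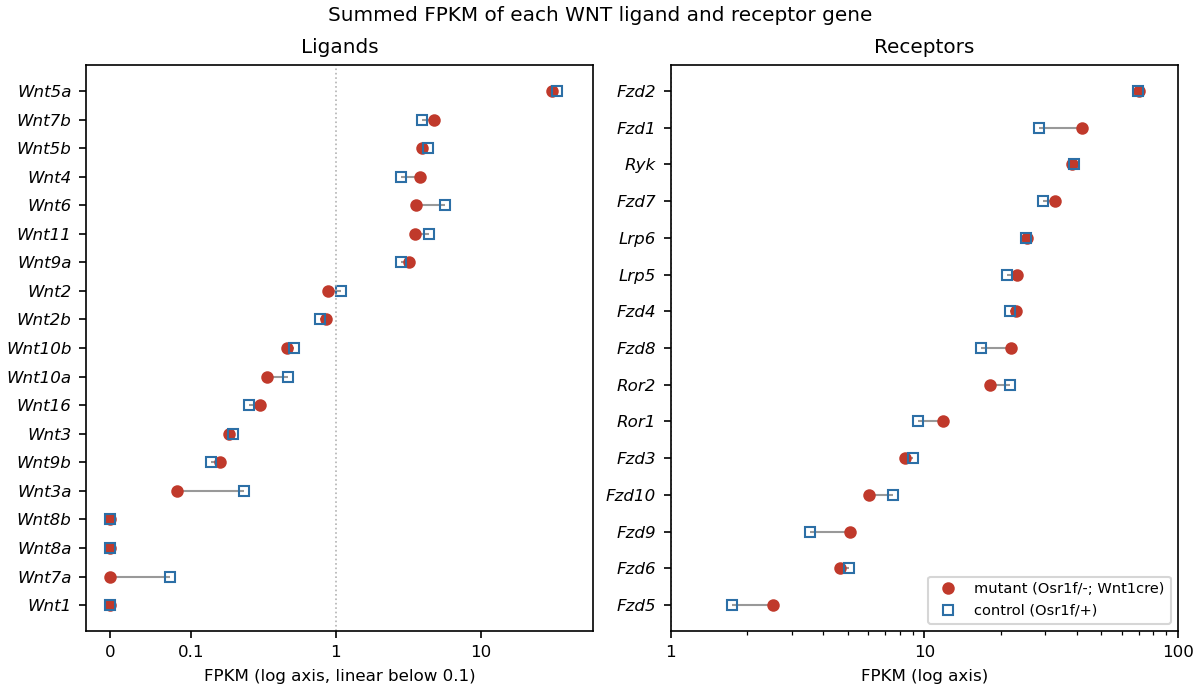
FPKM of the 19 ligand genes (left) and 15 receptor genes (right), on log axes, with the mutant library as filled circles and the control library as open squares. Wnt5a stands apart from the other ligands at 31.0 FPKM in the mutant and 33.6 in the control library, while all receptors lie above 1 FPKM (dotted line among the ligands) in both.

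Wnt5a was the main ligand. WNT5A acts in many settings through ROR2 and frizzled proteins without β-catenin. The gene (mm9 chromosome 14, 29318659 to 29338620) had 31.0 FPKM in the mutant and 33.6 FPKM in the control library, a ratio of 0.923 (0.876 to 0.972). It made up 54.3% of all ligand FPKM in the mutant and 54.8% in the control library. Its share of the ligand RNA was thus nearly equal in the libraries, although its own level was lower by more than counting error. Wnt5b, its close paralog, had 3.94 FPKM in the mutant and 4.35 in the control library, and the interval of the ratio of 0.906 included 1 (0.742 to 1.10). The Wnt5b locus overlaps the model of Fbxl14, the only such overlap among the 34 genes. The overlap is of whole loci, introns included, and whether the transcripts share bases or reads was not tested. Wnt11, another WNT that steers cell movement, had 3.50 FPKM in the mutant and 4.40 in the control library, a ratio of 0.796 (0.659 to 0.960). Wnt4, Wnt5a, Wnt5b and Wnt11, the ligands best known for signals without β-catenin, together held 74.1% of ligand FPKM in the mutant and 73.7% in the control library.

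Wnt6 had the largest log2 ratio in size among the 8 measured ligands, on the scale with 1 FPKM added. WNT6 is known from ectodermal epithelia, where it can signal through β-catenin. Wnt6 (chromosome 1, 74818466 to 74831893) had 3.59 FPKM in the mutant and 5.66 FPKM in the control library. The ratio was 0.633 (0.514 to 0.775), from about 171 reads in the mutant and 221 in the control library. By level it was the second ligand of the control and the fifth of the mutant library. Wnt10a, its neighbour 6.70 kb away on the same chromosome, had 0.335 FPKM in the mutant and 0.468 in the control library, but with about 15 and 17 reads the interval of its ratio of 0.715 was wide (0.335 to 1.53). Markers of epithelium were mildly lower as well. Of 22 measured epithelial genes 18 were lower and 4 higher in the mutant library, their median log2 ratio was −0.08, and all 24 listed genes summed to 233.2 FPKM in the mutant and 254.7 FPKM in the control library, a ratio of 0.916. None of them was at 0. The defining markers Epcam, Cdh1, Krt5, Krt14 and Trp63 had ratios of 0.930, 0.888, 0.796, 0.848 and 0.968. The 4 genes on the higher side, Krt8, Cldn3, Grhl2 and Grhl3, had ratios of 1.13, 1.38, 1.06 and 1.04, each with an interval that included 1. Of the 22 genes, the interval lay below 1 for 5 and above 1 for 0, against 10.2% and 10.7% of all measured genes. None was past the lower log2 limit used above, against 2.2% of all measured genes. The part of these markers in the value of Wnt6 was not tested.

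Of the ligands at 1 FPKM or more, 3 lay on the higher side. Wnt7b, a ligand of lung epithelium, had 4.76 FPKM in the mutant and 3.93 FPKM in the control library, a ratio of 1.21 (1.03 to 1.43). It was the second ligand by level in the mutant and the fifth in the control library. Wnt4, needed in kidney and gonad development, had 3.83 FPKM in the mutant and 2.84 FPKM in the control library. Its ratio was 1.35, but with about 97 reads in the mutant and 59 in the control library the interval included 1 (0.961 to 1.89). Wnt9a, a ligand of joint and skeletal tissue, had 3.18 FPKM in the mutant and 2.84 in the control library, a ratio of 1.12 (0.924 to 1.37). Wnt2 had 0.878 FPKM in the mutant and 1.08 in the control library. It passed the limit of 1 FPKM only in the control library, so the filter itself put it on the lower side.

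Below Wnt5a the order of the ligands was loose. In the mutant library the levels of Wnt7b, Wnt5b and Wnt4 had intervals of 4.29 to 5.27, 3.43 to 4.50 and 3.10 to 4.67 FPKM, and those of Wnt6, Wnt11 and Wnt9a ran from 3.07 to 4.17, from 3.06 to 3.99 and from 2.80 to 3.61 FPKM. Each of these 6 overlapped its neighbour in the order. In the control library Wnt6 had an interval of 4.94 to 6.46 FPKM, whose lower end only just overlapped those of Wnt11 and Wnt5b. The remaining 11 ligands were below 1 FPKM in both libraries. Wnt2b was the highest of them, at 0.850 FPKM in the mutant and 0.784 in the control library. Wnt10b had 0.461 and 0.516 FPKM in the mutant and the control library, Wnt16 had 0.298 and 0.250, Wnt3 had 0.184 and 0.195, and Wnt9b had 0.159 and 0.137. Wnt3a, a classic activator of β-catenin, had 0.0830 FPKM in the mutant and 0.232 in the control library, from about 5 and 12 reads (ratio 0.357, 0.0939 to 1.04). For all 8 of the 11 low ligands that had reads in either library, the interval of the ratio included 1.

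Wnt1, Wnt8a and Wnt8b were listed at 0 in both libraries. For Wnt1, whose regulatory sequence drives the Cre of the mutant, 3 reads would correspond to 0.0548 FPKM in the mutant and 0.0671 in the control library, which is the limit that a count of 0 sets here. Wnt7a was listed at 0 in the mutant library, where 3 reads would be 0.0409 FPKM, and at 0.0735 FPKM in the control library, from about 4 reads. The ligand genes lay partly in pairs of neighbours, and 4 pairs were within 100 kb: Wnt6 with Wnt10a, Wnt3a with Wnt9a, Wnt9b with Wnt3, and Wnt10b with Wnt1. Members of a pair could differ widely in level. For example, Wnt9a and Wnt3a, 16.2 kb apart, had 3.18 and 0.0830 FPKM in the mutant library, against 2.84 and 0.232 FPKM in the control library.

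**Figure D2:**
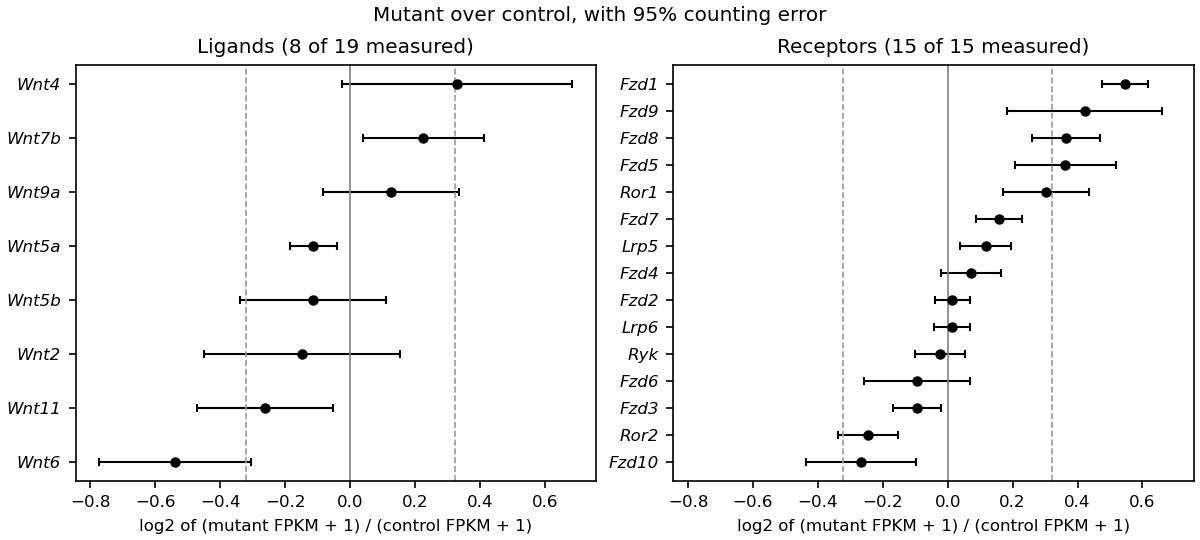
Log2 ratio of mutant to control, with 1 FPKM added to each, for the measured ligands (left) and receptors (right), with bars of 95% counting error and dashed lines at 0.32 and −0.32. Wnt6 is the only gene below the lower line, and Fzd1, Fzd9, Fzd8, Fzd5 and Wnt4 lie above the upper one, Wnt4 with a bar that crosses 0.

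Fzd1 showed the largest difference among the receptors. It encodes a frizzled of the subgroup it shares with Fzd2 and Fzd7, which serves β-catenin signalling in many tissues. Fzd1 (chromosome 5, 4753839 to 4758216) had 41.9 FPKM in the mutant and 28.4 FPKM in the control library, a ratio of 1.48 (1.40 to 1.55) from about 4238 and 2343 reads. It was the second receptor by level in the mutant and the fourth in the control library. Fzd2 was the most abundant receptor and was nearly equal, with 70.4 FPKM in the mutant and 69.7 FPKM in the control library, a ratio of 1.01 (0.972 to 1.05). Fzd7 had 32.8 FPKM in the mutant and 29.3 FPKM in the control library, a ratio of 1.12 (1.06 to 1.18). The subgroup thus had 3 unequal members. Its sum of 145.1 FPKM in the mutant and 127.4 FPKM in the control library, a ratio of 1.14 (1.11 to 1.17), made up 43.5% of all receptor FPKM in the mutant and 41.2% in the control library.

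The 250 bases before the annotated start sites of Fzd1 and Wnt6 are shown because these genes had the largest log2 ratio in each direction among the measured members. They are RefSeq sequences on GRCm38.p6, the build of the promoter table, and not on the mm9 build of the expression tables. Capitals mark CpG dinucleotides, of which the Fzd1 window (chr5:4758217-4758466, minus strand) holds 12 and the Wnt6 window (chr1:74771642-74771891, plus strand) holds 28.
Fzd1: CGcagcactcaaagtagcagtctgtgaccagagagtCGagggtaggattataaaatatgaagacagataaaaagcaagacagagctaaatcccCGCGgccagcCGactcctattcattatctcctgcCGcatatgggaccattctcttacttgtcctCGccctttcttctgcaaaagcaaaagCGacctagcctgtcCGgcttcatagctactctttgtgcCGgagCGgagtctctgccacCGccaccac
Wnt6: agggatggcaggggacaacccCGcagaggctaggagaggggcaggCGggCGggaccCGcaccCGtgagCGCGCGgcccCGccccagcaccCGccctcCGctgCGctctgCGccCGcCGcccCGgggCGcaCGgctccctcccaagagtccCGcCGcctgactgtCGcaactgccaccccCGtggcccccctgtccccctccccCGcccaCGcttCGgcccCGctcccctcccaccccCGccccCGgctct
The G+C content was 51.2% in the Fzd1 and 79.6% in the Wnt6 window. A promoter entry was at hand for 24 of the 34 genes, with 27 windows whose median was 71.6% G+C and 24 CpG, against 52.4% and 6 over all 32851 windows of the table. No entry was at hand for Wnt5a, Wnt7b, Wnt8a, Wnt10a, Fzd2, Fzd3, Fzd6, Fzd8, Lrp5 or Lrp6, so the windows leave out the most abundant ligand and receptor.

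The same windows were searched on both strands for the core recognised by TCF and LEF factors, spelled CTTTG followed by a pair of bases that are each A or T. It was found in 3 of 27 member windows (11.1%), that of Fzd7, 1 of the 2 of Wnt11 and 1 of the 3 of Wnt5b, against 14.8% of all windows. The core GCTACTG of odd-skipped factors, searched in the same way, was in 0 of 27 windows, against 3.04% of all windows. A match of letters is only a description, and no match says only that the letters are not in the 250 bases searched. Fzd7 and Wnt11 are shown with the match in capitals on its reverse strand, as the examples that lay on opposite sides of a ratio of 1. They are at chr1:59481992-59482048 and chr7:98835036-98835092 of GRCm38.p6, both on the plus strand.
Fzd7: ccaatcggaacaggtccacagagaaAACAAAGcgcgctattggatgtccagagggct
Wnt11: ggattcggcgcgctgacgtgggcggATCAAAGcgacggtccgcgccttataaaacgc
The Wnt11 match starts 51 bases before 1 of its 2 annotated start sites, while the window of the other holds no match. That of Fzd7 starts 130 bases before its annotated start site.

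The other frizzled genes were split. Fzd8, of the subgroup it shares with Fzd5, had 21.9 FPKM in the mutant and 16.8 FPKM in the control library, a ratio of 1.31 (1.21 to 1.41). Fzd5 itself was the rarest receptor, with 2.53 FPKM in the mutant and 1.74 FPKM in the control library, a ratio of 1.45 (1.22 to 1.71). Together they had a ratio of 1.32 (1.23 to 1.42), so that both members of this subgroup lay on the same side. Fzd9 had 5.10 FPKM in the mutant and 3.55 FPKM in the control library, a ratio of 1.44 (1.16 to 1.78). Its relative Fzd10 lay on the other side, with 6.06 FPKM in the mutant and 7.51 FPKM in the control library, a ratio of 0.808 (0.705 to 0.928), and their sum was 11.2 FPKM in the mutant and 11.1 FPKM in the control library. Fzd4, which also binds the non-WNT ligand norrin in vessels of the eye, had 22.9 FPKM in the mutant and 21.8 in the control library, and the interval of the ratio of 1.05 included 1 (0.984 to 1.13). Fzd3 and Fzd6 are the frizzled genes best known for cell polarity. Fzd3 had 8.41 FPKM in the mutant and 9.05 in the control library, a ratio of 0.929 (0.877 to 0.985), and Fzd6 had 4.65 and 5.04 FPKM in the mutant and the control library, a ratio of 0.924 (0.804 to 1.06).

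Of the 10 frizzled genes, 6 had a transcript as long as their locus, which leaves no room for an intron: Fzd1, Fzd2, Fzd7, Fzd8, Fzd9 and Fzd10. Their ratios ran from 0.808 to 1.48, and those of the 4 frizzled genes with introns from 0.924 to 1.45. The direction of the difference was therefore not shared within either kind. All 10 frizzled genes summed to 216.7 FPKM in the mutant and 192.8 FPKM in the control library, a ratio of 1.12 (1.10 to 1.15).

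**Figure D3:**
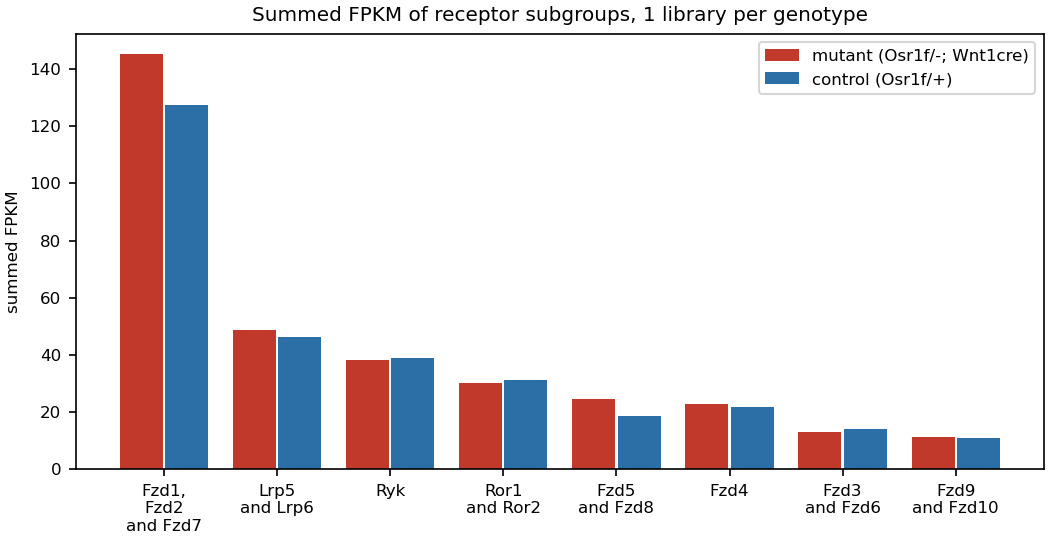
Summed FPKM of the receptor genes by subgroup of related proteins, with the mutant library as the left and the control library as the right bar of each pair, and no error bars since there was 1 library per genotype. The subgroup of Fzd1, Fzd2 and Fzd7 stands highest, at 145.1 and 127.4 FPKM in the mutant and the control library, and that of Fzd5 and Fzd8 has the largest ratio, 1.32.

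Lrp5 and Lrp6 encode the coreceptors that β-catenin signalling requires. Lrp6 was nearly equal, with 25.4 FPKM in the mutant and 25.2 FPKM in the control library, a ratio of 1.01 (0.970 to 1.05). Lrp5 had 23.2 FPKM in the mutant and 21.3 FPKM in the control library, a ratio of 1.09 (1.03 to 1.15). Ror1 and Ror2, which encode receptor tyrosine kinases that bind WNT5A, lay on opposite sides. Ror1 had 11.9 FPKM in the mutant and 9.43 FPKM in the control library, a ratio of 1.26 (1.14 to 1.39). Ror2 had 18.2 FPKM in the mutant and 21.7 FPKM in the control library, a ratio of 0.836 (0.781 to 0.896). The intervals of the paired genes did not overlap, and their sum was nearly equal, at 30.0 FPKM in the mutant and 31.2 FPKM in the control library, a ratio of 0.964 (0.911 to 1.02). Ryk, which encodes a receptor with an inactive kinase domain, had 38.3 FPKM in the mutant and 39.0 FPKM in the control library, a ratio of 0.984 (0.932 to 1.04). Wnt5a and Ror2 encode a ligand and a receptor that act together in limb and face. Both were lower in the mutant library by more than counting error, Wnt5a by the smaller amount, whereas Ror1 was higher. Over all measured genes the interval lay below 1 for 10.2%.

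The order of the receptors by level was tighter than that of the ligands. Fzd2 was first in both libraries, with intervals of 68.6 to 72.2 FPKM in the mutant and 67.7 to 71.7 FPKM in the control library that met no other receptor. In the mutant library Fzd1 (40.7 to 43.2 FPKM) and Ryk (36.9 to 39.7) were also apart from their neighbours. In the control library Fzd7 (28.2 to 30.5) and Fzd1 (27.2 to 29.5) overlapped. Lrp5, Fzd4 and Fzd8 formed a group of overlapping levels in the mutant library, between 20.9 and 24.0 FPKM, and Lrp5, Fzd4 and Ror2 did so in the control library, between 20.4 and 22.9 FPKM.

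The tables list RefSeq transcripts, and 4 of the 34 genes had several. For these the tool divided the reads by estimation, and values of single transcripts are less certain than their sums. Fzd5 had 2 transcripts on the same locus. The one of 6807 nt had 1.58 FPKM in the mutant and 0.649 FPKM in the control library, whereas the one of 6914 nt had 0.945 and 1.10 FPKM in the mutant and the control library. Fzd6 had 1 transcript of 4081 nt with 4.65 FPKM in the mutant and 4.01 in the control library. Its other transcript, of 4085 nt, was listed at 4.67e-05 FPKM in the mutant and at 1.03 FPKM in the control library, so the lower sum of Fzd6 came from this transcript. Ryk was divided nearly evenly: its transcript of 3267 nt had 19.8 FPKM in the mutant and 18.9 in the control library, and that of 3258 nt had 18.6 and 20.1 FPKM in the mutant and the control library. Of 3 Wnt7b transcripts, that of 3373 nt held nearly all of the level, with 4.66 FPKM in the mutant and 3.75 FPKM in the control library.

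Counts in the lists of other pathway genes stand beside the shares over all measured genes: 3.23% were past 0.32 and 2.2% past −0.32, and the interval of the ratio lay above 1 for 10.7% and below 1 for 10.2%. Of 21 genes of β-catenin transduction, from Dvl1 to Tle3, 12 were higher and 9 lower, with a median log2 ratio of 0.04, and 0 were past 0.32 and 1 was past −0.32. Ctnnb1, which encodes β-catenin, had 349.3 FPKM in the mutant and 339.7 FPKM in the control library, a ratio of 1.03 (1.01 to 1.04), and was named after its values were seen. Btrc, Pygo1, Tle1 and Lef1 had the largest ratios of the list at 5 FPKM, at 1.14, 1.21, 1.14 and 1.17. Tcf7, the gene past −0.32, had 2.04 FPKM in the mutant and 3.06 FPKM in the control library and was also named after its values were seen. The nuclear partners of β-catenin thus held both directions, with Lef1 at 10.1 FPKM in the mutant and 8.66 FPKM in the control library.

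Genes that β-catenin signalling raises in many tissues lay mostly on the lower side. Of 13 measured feedback and target genes 2 were higher and 11 lower, with a median of −0.05, where 6046 of all 12383 measured genes were lower. A log2 ratio past 0.32 was found for 1 and past −0.32 for 2, and the interval of the ratio lay above 1 for 2 and below 1 for 4. Axin2, the usual readout, had 8.19 FPKM in the mutant and 8.41 FPKM in the control library, and the interval of the ratio of 0.974 included 1 (0.878 to 1.08). Nkd1, a feedback inhibitor, had a ratio of 0.929 (0.831 to 1.04), and its relative Nkd2 had 0.788 (0.682 to 0.912). Sp5, a zinc finger target, had 2.99 FPKM in the mutant and 4.10 FPKM in the control library, a ratio of 0.729 (0.580 to 0.920). Lef1 and Lgr5 were the 2 genes on the higher side, with ratios of 1.17 (1.03 to 1.33) and 1.31 (1.20 to 1.44). Of this list, Lef1, Tcf7, Lgr5, Znrf3, Rnf43, Notum and Dkk1 stand in another list as well, so the counts are not independent.

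R-spondins and LGR receptors strengthen WNT signals by keeping frizzled proteins on the cell surface, against the ligases ZNRF3 and RNF43. Of 8 measured genes of this kind 5 were higher and 3 lower, with a median of 0.10, 1 of them past 0.32 and 1 past −0.32. Lgr4, Lgr5, Rspo1 and Rspo3 had ratios of 1.13, 1.31, 1.14 and 1.09, of which the interval lay above 1 for Lgr4 and Lgr5. Lgr6, the gene past −0.32, had 1.17 FPKM in the mutant and 1.97 FPKM in the control library, a ratio of 0.594 (0.455 to 0.781). The interval lay below 1 for Znrf3 as well, with a ratio of 0.872 (0.777 to 0.977). Lgr6 and Znrf3 were named after their values were seen. For ligand release and glypicans, 2 of 6 measured genes were higher and 4 lower, with a median of −0.03 and none past 0.32 in either direction. Wls, the carrier that takes WNTs to the cell surface, had 45.1 FPKM in the mutant and 46.1 FPKM in the control library, a ratio of 0.979 (0.927 to 1.04). The glypican genes Gpc3, Gpc4 and Gpc6 had ratios of 0.982, 0.892 and 1.03, each with an interval that included 1. Among secreted inhibitors 6 of 10 were higher and 4 lower, with a median of 0.05, and the 2 past 0.32 were Frzb, at 12.3 FPKM in the mutant and 5.83 in the control library, and Dkk2, at 6.19 and 4.26 FPKM. Dkk3 and Kremen1 had ratios of 1.06 and 0.933. Of 16 planar polarity genes, which work with Fzd3 and Fzd6, 6 were higher and 10 lower (median −0.06), and none was past 0.32 in either direction. The interval lay below 1 for 6 of them, among them Prickle1, Prickle2 and Daam2 with ratios of 0.919, 0.826 and 0.911, and above 1 for Dact1, with a ratio of 1.18. Over all measured genes the interval lay below 1 for 10.2%. The 6 genes rested on about 795 to 5617 reads in the mutant and 766 to 4791 in the control library, against medians of 650 and 526 over all measured genes, and more reads give narrower intervals.

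**Figure D4:**
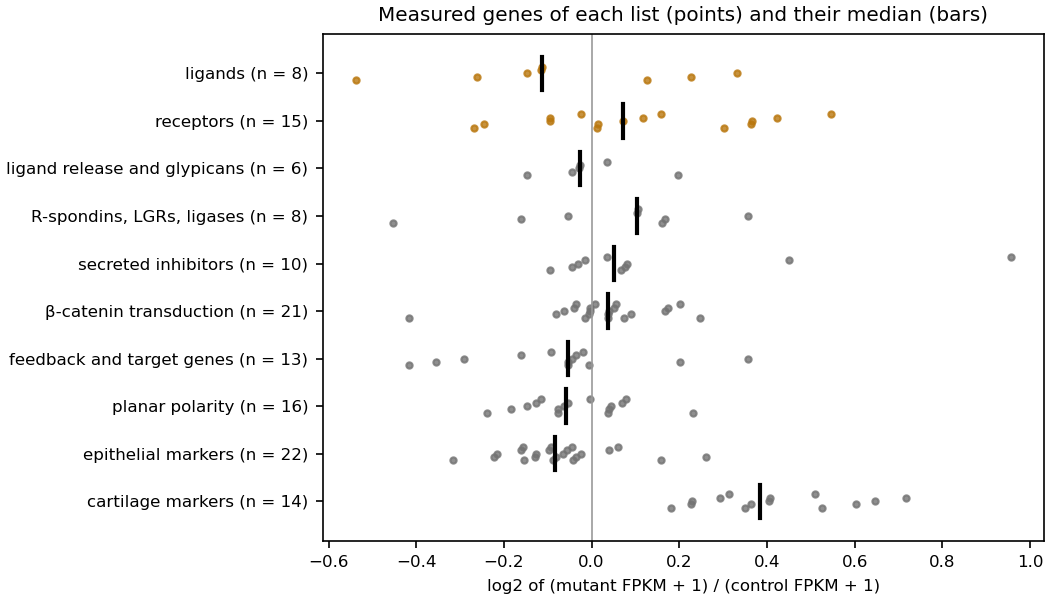
Log2 ratio of mutant over control, on FPKM plus 1, for the measured genes of each list (points) with the median of the list (black bars). Ligands, with a median of −0.11, and receptors, with 0.07, spread on both sides of 0, whereas all 14 cartilage markers lie to the right of it.

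Markers of the cell types that could share these genes also differed between the libraries. All 14 cartilage markers were higher, with a summed level of 323.4 FPKM in the mutant and 235.7 FPKM in the control library. Mesenchyme markers had 4 of 12 higher and 8 lower, with sums of 1358 FPKM in the mutant and 1385 FPKM in the control library. Muscle markers had 5 of 12 higher and 7 lower, with sums of 753.7 and 726.2 FPKM in the mutant and the control library. Neuronal markers had 4 of 11 higher and 7 lower (52.0 FPKM in the mutant and 62.0 in the control library), and Schwann lineage markers had 1 of 8 higher and 7 lower (80.7 and 93.5 FPKM). Endothelial markers had 7 of 10 higher and 3 lower (87.6 FPKM in the mutant and 83.6 in the control library), and all 8 measured erythroid genes were lower (1196 and 1452 FPKM). No marker with a row was listed at 0 in either library. Hbb-b2, among the 8 erythroid genes, had 9.53e-05 FPKM in the mutant and 1.59 FPKM in the control library, so the filter itself put it on the lower side, and its model overlaps that of its near-identical copy Hbb-b1. The part of these markers in the values of the WNT ligands and receptors was not tested.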

How the data were processed

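Total RNA of pooled tongues at embryonic day 12 was made into cDNA with a kit for small amounts of RNA, per the labels' protocols, and gave 1 library per genotype. Bowtie 0.12.7 and TopHat 1.4.1 are listed with the build mm9, per the submitters' processing notes. No Cufflinks version, read length or strandedness is given by these notes. Per the file headers, the authors deposited 1 row for each RefSeq transcript, with its FPKM and its coverage signal (without scaling for depth). The file names put the libraries on different lanes, so lane and genotype cannot be told apart.

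The 28107 rows were summed by symbol to 22072 genes. A gene was measured at 1 FPKM or more in either library with the status OK in all rows (12383 genes; 204 symbols failed on status). The log2 ratio used a pseudocount of 1 FPKM, and plain ratios are of FPKM. Coverage times length clustered at 47.4 bases in transcripts of at least 1000 nt, taken as 1 read. This gave reads per gene, exact conditional (Clopper-Pearson) 95% intervals of ratios and exact Poisson intervals of levels with SciPy 1.17.1, and a floor of 3 reads. Intervals of sums used the normal approximation on the log scale. These hold counting error alone, and they are too narrow where reads of amplified cDNA are not independent molecules. The intervals of ratios were tested on simulated data with independent reads, which is what they assume. Such a test cannot show how they hold for amplified cDNA. Starts in the files count from 0 and are given from 1.

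Members, lists and settings were chosen with earlier results of these data known. Text names every member, up to 4 genes of each pathway list (those furthest from 0 among genes at 5 FPKM or more), Axin2, Lef1, Sp5 and Nkd1, and defining markers. Promoters are RefSeq sequences on GRCm38.p6, matched by symbol.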

Additional observations from a re-analysis of the deposited data

How the results depend on the processing

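The medians and sums were recomputed under other settings, of which leaving out Wnt6, Fzd1 or genes at 1 FPKM in only 1 library was chosen after seeing the data. The receptor median stayed above 0 (0.04 to 0.12), the ligand median below 0 (−0.33 to −0.06), and their difference between 0.12 and 0.37. With a limit of 5 FPKM only 2 ligands were left, Wnt5a and Wnt6, and their median was −0.33. The 5 members with a log2 ratio of 0.32 or more became 3 with that limit and 1, Fzd1, with a pseudocount of 5 FPKM. Over all genes the share past 0.32 fell as well, from 3.23% to 1.86% and 0.97%. The 1 member at −0.32 or less became 0 with a pseudocount of 5 FPKM, as a larger pseudocount shrinks all ratios. Members past 0.32 rose to 6 with a pseudocount of 0.1 FPKM, where the share of all genes was 5.35%. They were also 6 with FPKM rescaled to an equal sum in both libraries (TPM), where that share was 6.46%. The FPKM sums were already close, at 305019 in the mutant and 305841 in the control library. On the TPM scale the limit and the pseudocount of 1 stand for less than 1 FPKM, so 26 members and 14171 genes were measured. The ratio of the receptor sums was 1.10 without Fzd2 and 1.04 without Fzd1. With only the highest transcript row of each gene, Fzd6 and Ryk changed sign, with log2 ratios of 0.17 and 0.06, and Fzd5 had 0.65. No other setting changed the sign of any of the 23 measured members. No paired analysis was possible because each genotype had 1 library, and no replicate could be left out. Depth limits the 11 ligands below 1 FPKM, whose ratios rest on at most about 70 reads in a library.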
